A study of Mus musculus with 3 samples.

Results

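Cells rid themselves of surplus cholesterol and store or burn fatty acids under the control of lipid-sensing transcription factors, among them the liver X receptors (LXRs) and PPARG. LXRs are switched on by oxysterols, PPARG by fatty acids and their derivatives, and both bind DNA as partners of a retinoid X receptor. In macrophages, the lineage from which osteoclasts arise, LXRs drive genes that export cholesterol, and PPARG drives genes that take up and hold fatty acids; in mice PPARG also favours osteoclast formation. The 10 genes described here are the receptor genes Nr1h2 (LXR beta), Nr1h3 (LXR alpha) and Pparg, the export and turnover genes Abca1, Abcg1, Apoe and Mylip, and the fatty acid genes Lpl, Plin2 and Fabp4. They were chosen by symbol, with earlier results of these data known, and all 10 were found among the 24067 genes of the deposited table.

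RNA came from primary mouse pre-osteoclasts from bone, mononuclear cells on the way to becoming bone-resorbing osteoclasts. All cells were differentiated with MCSF and RANKL for 2 days and carried a short hairpin RNA (shRNA). The 3 groups were sheared cells with Ift88 shRNA, sheared cells with control shRNA, and static cells with control shRNA; static cells received no shear. Shear was orbital fluid flow for 24 hours, and Ift88 encodes a transport protein needed to build the primary cilium. Each group was 1 library, so no difference has a replicate check and no p-value is given. The number and sequence of the hairpins, the age and strain of the mice and the pooling of animals are not stated in the sources at hand. Ift88 shRNA without shear was not analysed here, and so effects of the hairpin that need shear and effects that do not cannot be told apart.

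Levels are FPKM, fragments per kilobase of transcript corrected for library depth, and can be compared between genes because they are given per length. Depth was estimated at 35000000 fragments with Ift88 shRNA, 35550000 in the sheared control and 35050000 in the static control. Ift88 was at 1.197 FPKM in the Ift88 shRNA library, 2.71 in the sheared control and 2.98 in the static control, which is the direction the label gives. Of 12 osteoclast markers 9 had a mean of at least 1 FPKM. They included Acp5 (83.0, 52.9 and 97.7 FPKM in the same order of libraries), Ctsk (18.5, 12.6 and 29.4) and Atp6v0d2 (182, 199 and 211). The others, Calcr, Ocstamp and Oscar, were below 1 in every library. All 10 macrophage markers were present, with Cd68 at 1783, 1799 and 1787 FPKM.

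The 10 genes spanned a wide range of levels. Apoe, the secreted apolipoprotein that carries exported cholesterol, was at 2788 FPKM with Ift88 shRNA, 3599 in the sheared control and 3780.2 in the static control. These levels ranked 13th, 11th and 9th among the 10358 genes with a mean of at least 1 FPKM. Plin2, Fabp4 and Lpl followed, between 172 and 466 FPKM, then Nr1h2 between 43.8 and 50.6. Nr1h3, Pparg, Abcg1, Abca1 and Mylip all lay between 9.45 and 21.6 FPKM. Each value rested on at least 864 estimated fragments (Nr1h3, Ift88 shRNA) and at most 160054 (Apoe, static). Summed over the 10 genes, the level was 3610.2 FPKM with Ift88 shRNA, 4539 in the sheared control and 4830 in the static control, or 0.681%, 0.838% and 0.903% of all FPKM; Apoe made up most of each sum.

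**Figure D1:**
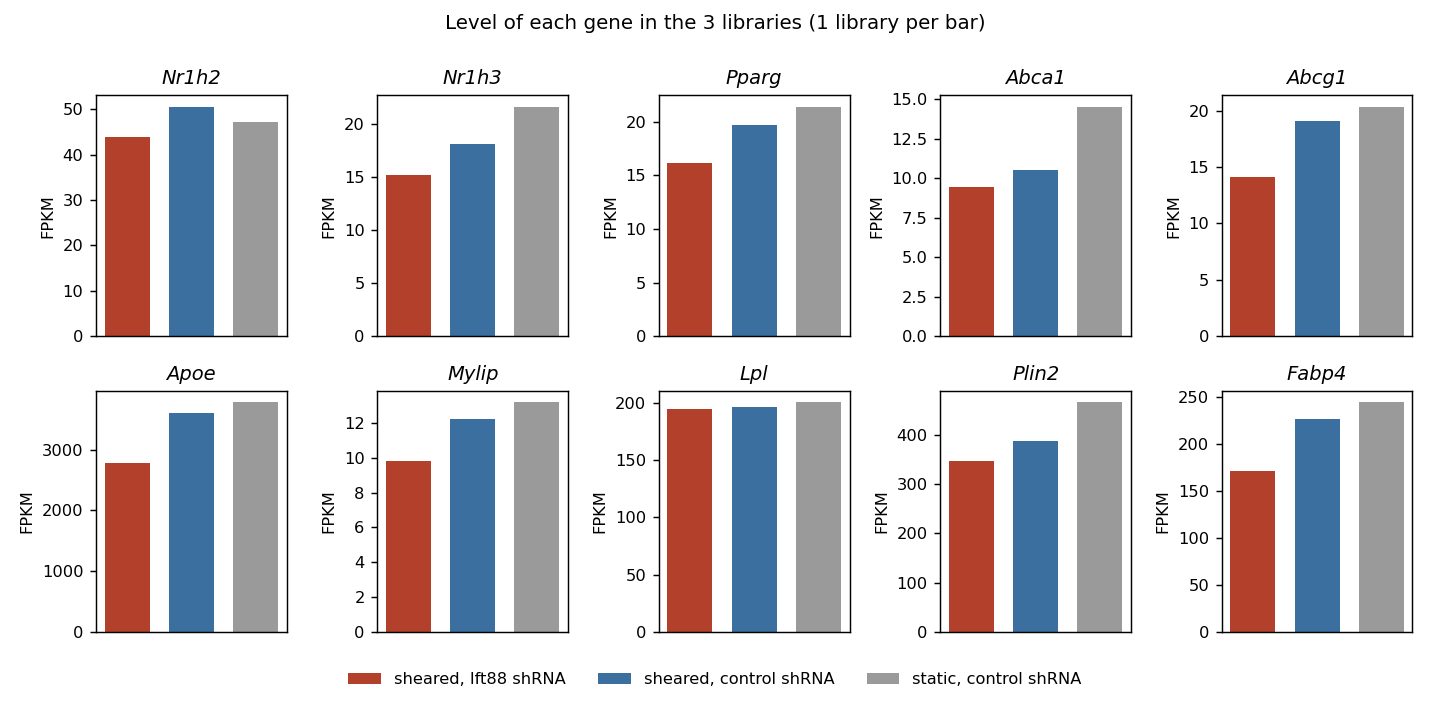
Level of each of the 10 genes in FPKM (vertical axes, each from 0), 1 library per bar: sheared with Ift88 shRNA, sheared with control shRNA, and static with control shRNA, from left to right. The bars of Lpl are nearly level (195, 197 and 201 FPKM), whereas Apoe and Abcg1 are lowest with Ift88 shRNA.

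Ratios are given below with 95% Clopper-Pearson intervals computed from the estimated fragments; they cover counting error only, not differences between cultures. For counts, a gene was taken as different when log2(FPKM + 1) differed by at least 1.2-fold, a low bar chosen because few genes in these libraries differed by more. In bulk RNA, fewer cells that express a gene and less RNA per cell cannot be told apart.

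Between the sheared libraries, all 10 genes were lower with Ift88 shRNA than with control shRNA, with ratios that ran from 0.991 for Lpl, whose direction turned when libraries were scaled to equal FPKM totals, to 0.737 for Abcg1. Among all 10358 genes tested, 46.4% were lower by any amount. By the 1.2-fold criterion 5 of the 10 were lower (Abcg1, Fabp4, Apoe, Mylip and Pparg) and none was higher, against 2.29% of all genes lower and 3.25% higher. Mylip and Pparg lay near the criterion and did not pass with equal FPKM totals or a pseudocount of 5, which left 3 genes. At these settings 1.83% and 0.888% of all genes were lower. The median log2 difference was -0.26 over the 10 genes and 0.010 over all genes tested.

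Abcg1 had the lowest ratio of the 10 genes in this comparison, followed by Fabp4 and Apoe. Abcg1, which passes cholesterol to high-density lipoprotein, was at 14.1 FPKM with Ift88 shRNA, 19.1 in the sheared control and 20.4 in the static control. The Ift88 shRNA library stood apart from both others, which were close together. Its ratio to the sheared control was 0.737 (0.702 to 0.775), and only 0.579% of all genes tested were as low or lower in this comparison. For Apoe the ratio was 0.775 (0.769 to 0.780). Mylip, an E3 ubiquitin ligase that limits lipoprotein uptake, was at 9.81 FPKM with Ift88 shRNA, 12.2 in the sheared control and 13.2 in the static control. Here too the Ift88 shRNA library was lowest, with a ratio to the sheared control of 0.802 (0.737 to 0.873).

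Abca1, which loads cholesterol onto lipid-poor apolipoprotein, differed less in this comparison. It was at 9.45 FPKM with Ift88 shRNA, 10.506 in the sheared control and 14.5 in the static control, so that both sheared libraries lay well below the static one. Its ratio of Ift88 shRNA to sheared control was 0.8999 (0.859 to 0.943), short of the 1.2-fold criterion. The Abcg1 level was 1.49 times that of Abca1 with Ift88 shRNA, 1.82 times in the sheared control and 1.40 times in the static control.

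Of the fatty acid genes, Fabp4, an intracellular fatty acid carrier, was at 172 FPKM with Ift88 shRNA, 226 in the sheared control and 245 in the static control. The Ift88 shRNA library was the low one, and its ratio to the sheared control was 0.759 (0.729 to 0.790). Fabp4 was the more abundant of Fabp4 and Lpl in both control shRNA libraries and the less abundant with Ift88 shRNA. Plin2, the protein that coats lipid droplets, was at 347, 387 and 466 FPKM in the same order of libraries, with a ratio of Ift88 shRNA to sheared control of 0.898 (0.881 to 0.915). Lpl, which releases fatty acids from lipoprotein triglyceride, was at 195, 197 and 201 FPKM. Its ratio of 0.991 (0.975 to 1.01) included equality at this depth, the only ratio of the 10 to do so in this comparison.

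The receptor genes lay in the middle of the 10 in this comparison. Pparg was at 16.1 FPKM with Ift88 shRNA, 19.7 in the sheared control and 21.4 in the static control, with a ratio to the sheared control of 0.820 (0.750 to 0.896). Nr1h3 was at 15.2, 18.1 and 21.6 FPKM, with a ratio of 0.839 (0.766 to 0.919). Nr1h2 was at 43.8, 50.6 and 47.2 FPKM, the only gene of the 10 whose highest level was in the sheared control, and its ratio was 0.866 (0.823 to 0.911). Neither LXR gene reached the 1.2-fold criterion. Nr1h2 exceeded Nr1h3 by 2.88 times with Ift88 shRNA, 2.79 times in the sheared control and 2.18 times in the static control.

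**Figure D2:**
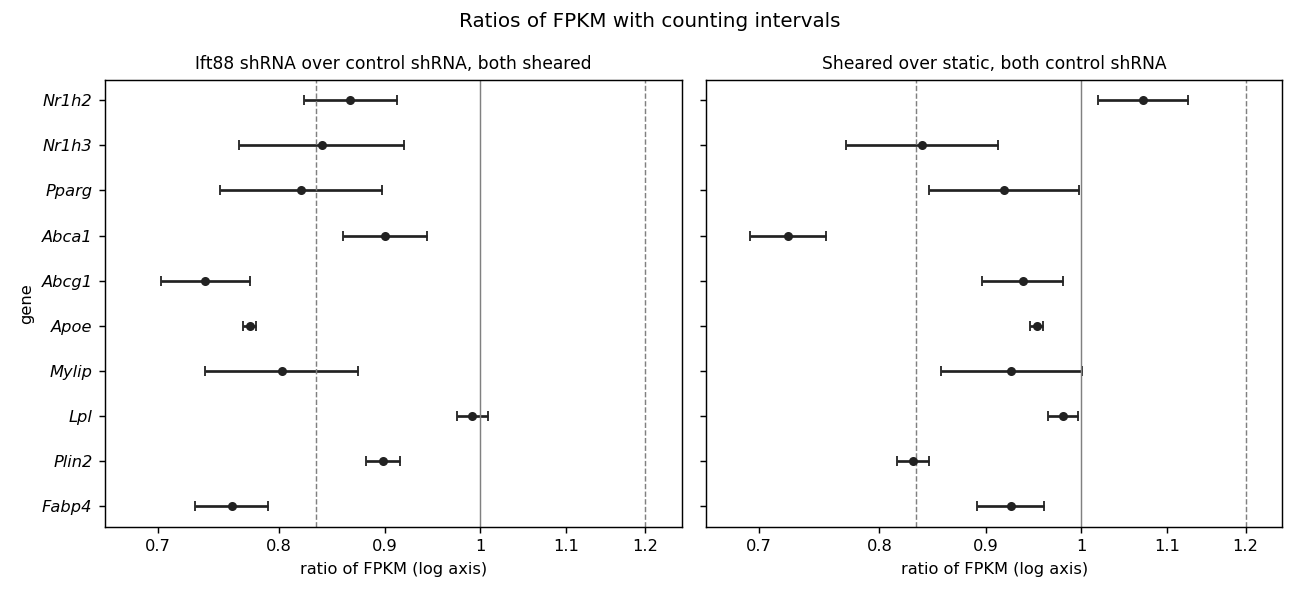
Ratio of FPKM for each of the 10 genes (points, log axis) with 95% counting intervals (bars), for Ift88 shRNA over control shRNA under shear (left) and sheared over static with control shRNA (right); the solid line marks equality and the dashed lines 1.2-fold. On the left Abcg1 (0.737), Fabp4 (0.759) and Apoe (0.775) lie lowest, and on the right Abca1 (0.723).

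Sheared cells were next compared with static cells, each carrying control shRNA. This shear comparison shares the sheared control library with the comparison above, so the values of the 2 are not independent. Abca1 had the lowest ratio of the 10 genes, at 10.5 FPKM in the sheared control and 14.5 in the static control; the ratio was 0.723 (0.693 to 0.754). In this comparison 0.579% of all genes tested were as low or lower than Abca1. Plin2, at 387 FPKM in sheared and 466 in static cells, had a ratio of 0.830 (0.816 to 0.845). These were the 2 of 10 genes lower by the 1.2-fold criterion, against 2.26% of all genes; none was higher, where 1.94% of all genes were. Plin2 did not pass after centring on the median of all genes, and Nr1h3 also passed after centring for transcript length and GC content. Nr1h3, at 18.1 FPKM against 21.6, came next with a ratio of 0.839 (0.771 to 0.912).

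The other 7 genes differed little between sheared and static cells. Fabp4 had a ratio of 0.925 (0.892 to 0.960), Abcg1 0.938 (0.897 to 0.980), Apoe 0.952 (0.945 to 0.959) and Lpl 0.981 (0.964 to 0.997). Pparg, with a ratio of 0.918 (0.845 to 0.998), lay just outside equality by counting error, and Mylip, with 0.926 (0.856 to 1.001), included it. Nr1h2 was higher in sheared cells, with a ratio of 1.07 (1.02 to 1.13). After centring for transcript length and GC content, its log2 difference fell from 0.097 to 0.016. That of Apoe moved from -0.071 to -0.157. By any amount 9 of the 10 were lower (8 after centring for transcript length and GC content, where Lpl was higher), where 53.9% of all genes were, and the median log2 difference was -0.11 over the 10 genes and -0.011 over all genes.

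Sheared cells with Ift88 shRNA were also set against static control cells, a comparison that changes shear and hairpin together and uses the same libraries again. By the 1.2-fold criterion 8 of the 10 genes were lower, all but Nr1h2 and Lpl, against 4.48% of all genes, and none was higher, against 4.79%. All 10 were lower by any amount (all but Lpl after centring for transcript length and GC content), where 50.1% of all genes were. Abca1 had a ratio of 0.651 (0.623 to 0.680), Abcg1 0.691 (0.659 to 0.726), Fabp4 0.702 (0.675 to 0.730) and Nr1h3 0.704 (0.644 to 0.768). Pparg, Plin2, Mylip and Apoe had ratios between 0.737 and 0.753, Nr1h2 0.928 (0.880 to 0.977) and Lpl 0.972 (0.956 to 0.989).

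**Figure D3:**
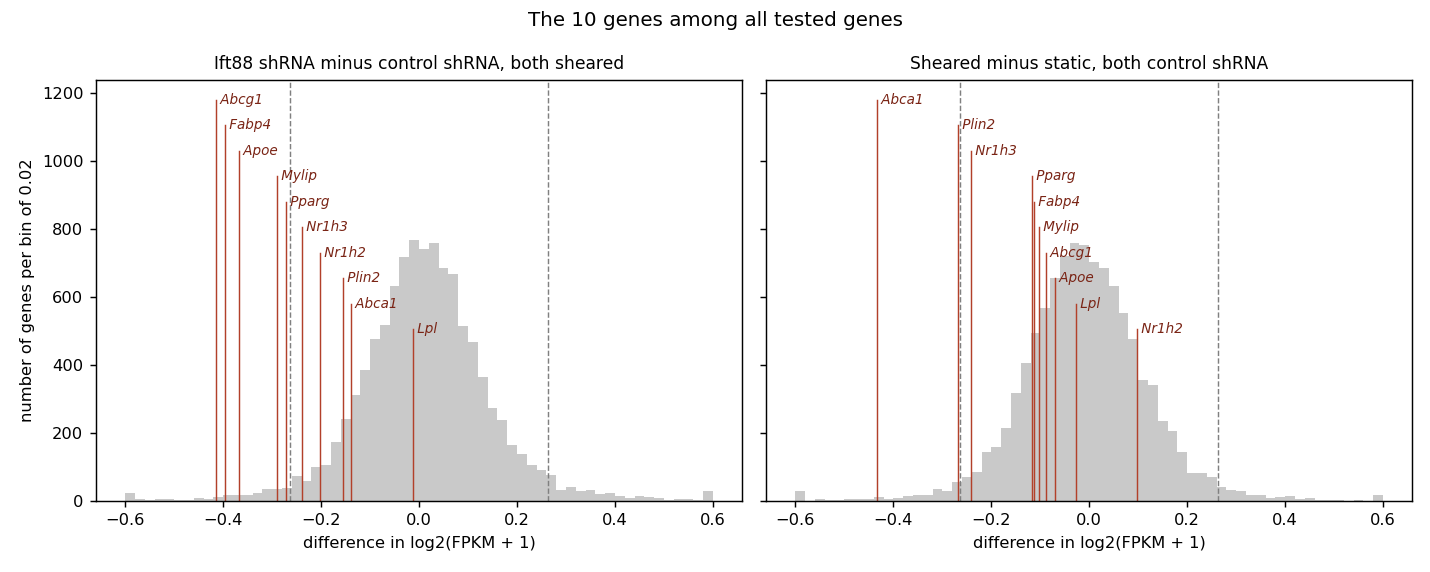
Difference in log2(FPKM + 1) for the 10 genes (red lines, named) over all 10358 genes tested (grey, number of genes per bin of 0.02; values beyond 0.6 in either direction are drawn at 0.6), for Ift88 shRNA minus control shRNA under shear (left) and sheared minus static (right). The dashed lines mark 1.2-fold; 5 genes lie beyond the lower one on the left and 2 on the right.

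Promoters of the 10 genes were searched for the paired half-sites to which these receptors bind, and those of Abca1 and Plin2, which differed most with shear, are shown because each held a match. LXR with a retinoid X receptor prefers a direct repeat with 4 bases between its half-sites, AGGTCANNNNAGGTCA, and PPARG a direct repeat with 1 base between, AGGTCANAGGTCA. The 250 bases before the annotated start (RefSeq, GRCm38.p6) are shown 5′ to 3′ on the gene's strand, with the match in capitals. Abca1 (chr4:53159896-53160145, minus strand) held a match to the first motif within 3 mismatches over the 12 letters compared, read on the opposite strand as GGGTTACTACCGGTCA, from 67 to 52 bases before the start. Plin2 (chr4:86670060-86670309, minus strand) held a match to the second motif within 2 mismatches, read on the opposite strand as AGGTCAGGGGTCC, from 225 to 213 bases before the start.
Abca1: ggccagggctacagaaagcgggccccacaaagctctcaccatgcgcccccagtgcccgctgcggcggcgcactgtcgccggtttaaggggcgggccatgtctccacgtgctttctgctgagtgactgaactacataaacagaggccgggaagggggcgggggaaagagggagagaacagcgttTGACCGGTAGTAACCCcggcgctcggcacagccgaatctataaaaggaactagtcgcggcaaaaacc
Plin2: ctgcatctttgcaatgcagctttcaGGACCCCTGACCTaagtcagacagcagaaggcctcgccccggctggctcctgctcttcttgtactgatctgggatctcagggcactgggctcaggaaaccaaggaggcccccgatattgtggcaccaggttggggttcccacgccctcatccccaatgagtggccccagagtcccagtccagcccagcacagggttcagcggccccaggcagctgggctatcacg
Such matches are common at the first limit and less so at the second. Of 32851 windows of the same length, both strands searched, 18.5% held the first motif within 3 mismatches and 3.24% the second within 2. Because the limits differ, these shares do not compare the motifs. Without a mismatch, 5 windows held the first and 11 the second. RefSeq windows were matched for 7 of the 10 genes (12 windows), and of these only Abca1 held the first and only Plin2 the second; Nr1h2, Nr1h3, Pparg, Apoe and Mylip held neither. A match describes letters and does not show binding.

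The other genes of the pathway were measured in the same way. In 7 lists of receptors, targets and lipid-handling genes, 59 genes other than the 10 had a mean of at least 1 FPKM. With Ift88 shRNA 31 of these 59 were lower than in the sheared control by any amount (52.5%, against 46.4% of all genes). By the 1.2-fold criterion 5 were lower (8.47%, against 2.29% of all genes) and 2 higher, where 3.25% of all genes were higher. The median log2 difference was -0.0065. In the shear comparison 30 were lower by any amount (50.8%, against 53.9% of all genes). By the 1.2-fold criterion 1 was lower (1.69%, against 2.26% of all genes) and 2 were higher, where 1.94% of all genes were higher. The median was -0.00080.

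Among other LXR targets, 2 of 10 were lower by 1.2-fold with Ift88 shRNA and none higher. Cd5l, a secreted macrophage survival protein, was at 2.76 FPKM with Ift88 shRNA, 4.37 in the sheared control and 6.26 in the static control. Its level was lowest with Ift88 shRNA, with ratios of 0.631 (0.521 to 0.764) to the sheared control and, for sheared over static, 0.698 (0.597 to 0.814). Apoc2, the activator of lipoprotein lipase, was at 5.98, 8.12 and 8.50 FPKM in the same order, with a ratio of Ift88 shRNA to sheared control of 0.737 (0.574 to 0.946). It lies at 19671579 to 19677941 on chromosome 7, near Apoe at 19696244 to 19701310. Apoc4 and Apoc1, which lie between them, were below 1 FPKM in every library. Other established LXR targets differed little: Pltp, which transfers phospholipid between lipoproteins, was at 381, 364 and 378 FPKM, Srebf1, the regulator of fatty acid synthesis, at 18.2, 18.1 and 17.4, and Smpdl3a, a phosphodiesterase, at 283, 299 and 289. Scd2 and Fasn, which make fatty acids, ran the other way at 11.4, 9.39 and 8.05 and at 8.74, 7.45 and 6.84 FPKM. Pltp, Srebf1, Smpdl3a, Scd2 and Fasn were named after their values were seen.

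PPAR targets other than the 10 genes were mixed, with 1 of 11 lower and 1 higher by 1.2-fold with Ift88 shRNA. Fabp5, a relative of Fabp4 on the same chromosome 3, was at 2265 FPKM with Ift88 shRNA, 2762 in the sheared control and 2707 in the static control, a ratio of Ift88 shRNA to sheared control of 0.820 (0.811 to 0.828). Hilpda, a lipid droplet protein induced by hypoxia, was higher, at 10.4, 8.05 and 9.54 FPKM with a ratio of 1.30 (1.03 to 1.64). Lipid droplet and lipolysis genes held 2 of 8 lower, Mgll, the monoacylglycerol lipase, at 12.4, 17.6 and 17.0 FPKM (ratio 0.701, 0.612 to 0.802) and Dgat2, an enzyme of triglyceride synthesis, at 4.94, 6.41 and 4.90 (ratio 0.772, 0.671 to 0.887). Dgat2 was the gene of that list higher by 1.2-fold in sheared than in static cells, with a ratio of 1.31 (1.14 to 1.505).

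Of 11 other receptor, partner and cofactor genes, Ppard among them, none passed 1.2-fold in either of these comparisons. Rxra, a partner of LXRs and PPARG, was at 23.6, 24.9 and 24.5 FPKM. With Ift88 shRNA 3 of the 11 were lower than in the sheared control (46.4% of all genes were), and the median log2 difference was 0.061. Ncor1 had the highest ratio of them, 1.11 (1.04 to 1.19). In the shear comparison 7 were lower (53.9% of all genes were), with a median of -0.028. Ppara and Rxrg were below 0.1 FPKM in every library. None of 8 uptake genes passed with Ift88 shRNA; Lrp8, a lipoprotein receptor, was higher in sheared than in static cells, at 1.38 against 0.964 FPKM, near the lower limit of the genes tested. Of 11 genes of cholesterol ester turnover and lysosomal exit, Stard4, a sterol carrier, was higher with Ift88 shRNA, at 6.94 against 5.61 FPKM (ratio 1.24, 1.14 to 1.35), and none was lower. Only 2 of 7 oxysterol enzymes reached the mean of 1 FPKM, Cyp27a1 at 10.03, 12.04 and 13.2 FPKM and Hsd3b7 at 62.7, 57.8 and 58.1. Neither passed the 1.2-fold criterion on log2(FPKM + 1) in these comparisons. The Cyp27a1 ratio of Ift88 shRNA to sheared control was 0.833 (0.746 to 0.929), at the edge of 1.2-fold. Cyp27a1 passed for Ift88 shRNA against the static control, with a ratio of 0.761.

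**Figure D4:**
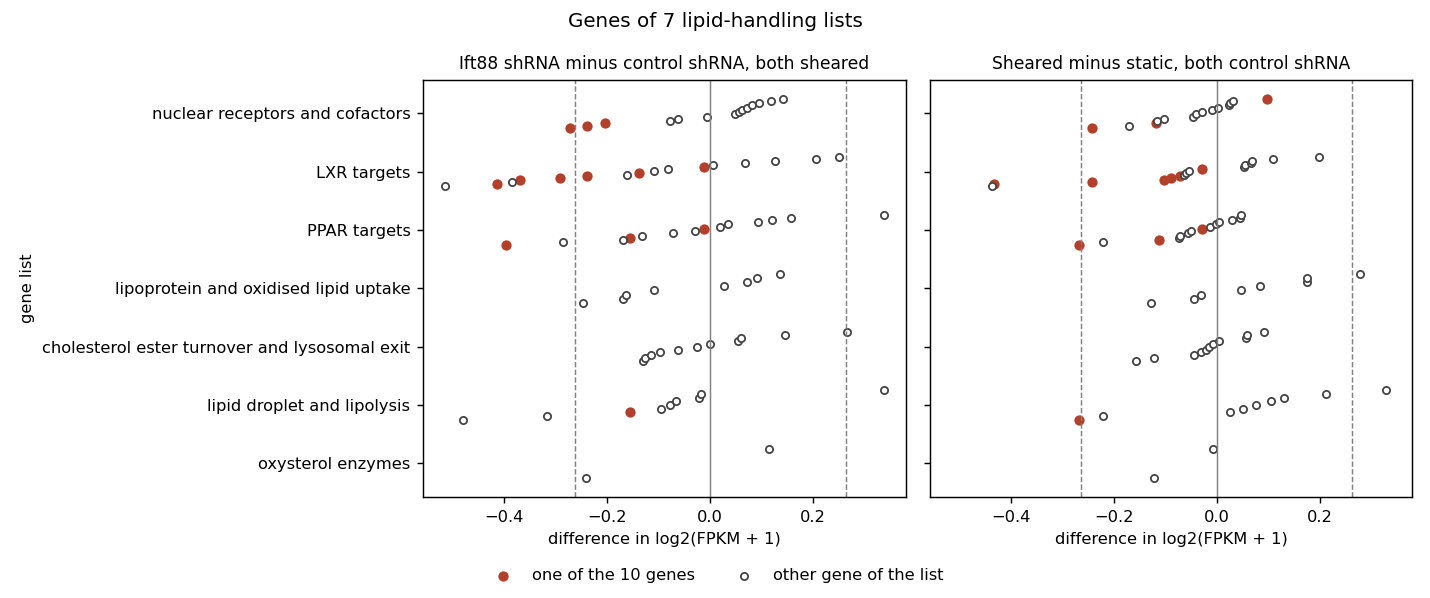
Difference in log2(FPKM + 1) (horizontal axes) for each gene with a mean of at least 1 FPKM in 7 lists, for Ift88 shRNA minus control shRNA under shear (left) and sheared minus static (right); filled points are the 10 genes, open points the other genes, dashed lines 1.2-fold, and heights within a list only separate the points. Beyond the lower dashed line of the left panel lie 5 of the 10 genes and 5 other genes.

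Genes with the pattern most like Abca1, Abcg1 and Fabp4 were sought among 7442 other protein-coding genes with a mean of at least 5 FPKM, by the distance between their log2 differences in the knockdown and shear comparisons over the 3 libraries. Nearest to Abcg1 were Fabp4 (distance 0.030), Gpd2, the mitochondrial glycerol-3-phosphate dehydrogenase (0.030), and Lims1, an adaptor at integrin adhesions (0.040). Nearest to Fabp4 were the zinc finger gene Plagl2 (0.021), Gpd2 (0.022) and Abcg1 (0.030). Gpd2 was at 4.63 FPKM with Ift88 shRNA, 6.34 in the sheared control and 6.83 in the static control. Nearest to Abca1 were Phf11b (0.0087), one of several closely related gene copies whose fragments may be shared, the interferon-induced GTPase gene Igtp (0.051) and the complement gene C1qb (0.088), at 27.5, 30.04 and 38.5 FPKM. With 3 libraries such closeness is a description only.

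Markers of other cell types were summed in each library. None of 8 adipocyte markers reached 1 FPKM in any library, their summed level was at most 0.0276 FPKM, and Lep, Plin1, Cidec, Cfd, Retn and Adrb3 were listed at 0 in all 3, so Fabp4, Lpl and Pparg were measured with adipocyte markers near 0. The 9 neutrophil markers summed to 45.1 FPKM with Ift88 shRNA, 43.4 in the sheared control and 77.6 in the static control; 5 of them passed the filter, 3 of those were lower by 1.2-fold in sheared than in static cells, and Elane and Mpo were listed at 0 in the sheared control. The 9 stromal and osteoblast markers summed to 9.66, 7.22 and 10.01 FPKM, with Sp7 at or below 0.0144 throughout. Of the 4 that passed the filter, 3 were lower by 1.2-fold in sheared than in static cells. With Ift88 shRNA 3 of these 4 were higher by 1.2-fold than in the sheared control. The 12 osteoclast markers summed to 414, 340 and 446 FPKM; of the 9 that passed the filter, 5 were higher by 1.2-fold with Ift88 shRNA than in the sheared control, and 4 were lower and 1 higher in sheared than in static cells. The 10 macrophage markers summed to 2663, 2635 and 2704 FPKM, most of it Cd68. In sheared cells 8 of the 10 macrophage markers were lower than in static cells (53.9% of all genes were). By 1.2-fold 3 of them were lower (2.26% of all genes were), and the median log2 difference was -0.18. With Ift88 shRNA 5 of the 10 were lower than in the sheared control (46.4% of all genes were), among them Fcgr1 by 1.2-fold (ratio 0.773), Mertk (0.890) and C1qb (0.917). The others were higher, none by 1.2-fold: Itgam (1.18), C1qa (1.14), Mrc1 (1.09), Csf1r (1.08) and Adgre1 (1.04). The median log2 difference was 0.025. The 7 endothelial markers summed to 28.5, 26.8 and 28.6 FPKM, nearly all from Vwf and Kdr, with Tek and Emcn listed at 0. Apart from adipocyte markers, each of the 5 sums was lower in the sheared control than in the static control, as were Abca1 and Plin2, and their part in those differences was not tested. Between the sheared libraries the same 5 sums were higher with Ift88 shRNA, while single macrophage, neutrophil and osteoclast markers went either way. Of 5 neutrophil markers that passed the filter 2 were lower with Ift88 shRNA, among them Csf3r (ratio 0.835, 0.774 to 0.900). Of 9 osteoclast markers 1 was lower, Atp6v0d2 (0.914, 0.894 to 0.935). The part of these cell types in the lower levels of the 10 genes was not tested.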

How the data were processed

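RNA from 3 libraries, 1 per group, was sequenced after poly(A) selection with the Illumina TruSeq mRNA kit, per the labels' protocols. The authors deposited FPKM values per gene; per the submitters' processing notes, Cufflinks 2.2.1, TopHat2 2.0.13, Trimmomatic 0.32 and bcl2fastq 1.8.4 were used with build mm10. Their settings and strand treatment are not stated in the sources at hand. FPKM is a share of a library, so abundant genes affect all others. Gene IDs were matched to RefSeq (GRCm38.p6) for 23987 of 24067 genes.

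A mean FPKM of 1 or more was required, which left 10358 genes to test, with a pseudocount of 1 and a 1.2-fold criterion; no p-value was computed. Depth came from the steps between low FPKM values in genes with 1 transcript of at least 1000 bases; 63.6%, 63.7% and 64.5% of values up to 10 fragments were whole within 0.1 (Ift88 shRNA, sheared control, static control), so fragments are estimates and intervals are approximate. Fragments used the shortest transcript. Scripts ran in Python 3.11.15 with numpy 2.4.6, pandas 2.3.3 and scipy 1.17.1. The steps for depth, ratios, intervals and calls were tested on simulated libraries that held counting error only. The motif search was not tested in this way.

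Members and lists (147 genes, all found) were chosen with earlier results of these data known. Named genes were the 10 members, Ift88, up to 3 genes per list and comparison past 1.2-fold, and the 3 nearest patterns to Abca1, Abcg1 and Fabp4. Alternatives covered pseudocount, filter, scaling, length with GC content, and fold.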

Additional observations from a re-analysis of the deposited data

How the results depend on the processing

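Depth was near equal, and the missing replicates limit every value. Counting error also bears on the counts of genes. With Ift88 shRNA against the sheared control, the intervals of Pparg (0.750 to 0.896) and Mylip (0.737 to 0.873) held a 1.2-fold difference within them. So did that of Plin2 (0.816 to 0.845) in the shear comparison. Among genes that did not pass, the same held for Nr1h3 in both comparisons and for Nr1h2 in the first. In the comparison of Ift88 shRNA with control shRNA under shear, the count of genes lower by 1.2-fold was 5 as reported. It was 3 with a pseudocount of 5 (0.888% of all genes lower) or with equal FPKM totals (1.83%), where Mylip and Pparg no longer passed. The count was 9 at a threshold of 1.1-fold, where 9.92% of all genes were lower. It was 0 at 1.5-fold (0.203% of all genes) or 2-fold (0.0676%). In the shear comparison the count was 2 as reported. It was 1 after centring on the median of all genes (2.04% of all genes lower), where Plin2 no longer passed. The count was 3 at 1.1-fold (12.4% of all genes) or after centring by bins of GC content and transcript length (2.24%), where Nr1h3 also passed. It was 0 at 1.5-fold (0.290% of all genes) or 2-fold (0.164%). For Ift88 shRNA against the static control the count of 8 became 0 at 1.5-fold (0.405% of all genes) or 2-fold (0.126%). Under the alternatives run for them, the median log2 differences shifted by less than the median counting error of a single gene of the 10. The counting error of the medians themselves was not computed. Of 210 recomputed single-gene values 18 moved beyond their counting interval, and no value past 1.2-fold changed sign. Lpl, which was never past 1.2-fold, changed sign under a scaling: it was at 0.020 for Ift88 shRNA over sheared control with equal FPKM totals, and at 0.033 (sheared over static) and 0.010 (Ift88 shRNA over static) after centring by bins of GC content and transcript length. No paired analysis was possible because each group had 1 library.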
